A study of Mus musculus with 8 samples.

Results

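The narrowest reproducible binding sites of TET1 in mouse embryonic stem cells were examined here, 2147 regions in which each of the 3 mock-treated ChIP-seq libraries had exactly 1 peak and all 3 of these peaks were under 350 bp wide. Peaks of all 6 deposited lists that overlapped or touched on chromosomes 1 to 19 were first merged, which gave 134739 regions, and 47377 of these, the all-mock set, had a peak in all 3 mock lists. The narrow regions made up 4.53% of those 47377, and the remaining 45230 are called the other regions. Of the other regions, 39903 also had exactly 1 peak in each mock list and are called the wider single-peak regions. Because peak number and width in the mock lists chose the narrow regions, their presence, number and width in those lists are descriptions and carry no test.

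The 3 nuclease-treated libraries came from cells incubated for 20 min with RNase H1 (0.2 U/ul) together with Nuclease S1 (0.05 U/ul), and the 3 mock libraries came from cells that went through the same steps without the enzymes. All 6 were made from permeabilised cells of 1 mouse line whose own Tet1 gene carries an HA tag, and were precipitated with an HA antibody after crosslinking with disuccinimidyl glutarate and formaldehyde. The cells are called E14TG2a in the series text, but each sample is labelled with the strain C57BL/6N. No sample received either enzyme alone. Whether the replicates were grown apart is not stated, so each p-value reflects only the scatter among these libraries, possibly a technical one. Each condition had its own pooled input, so an effect of the input on peak calling and one of the treatment cannot be told apart.

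TET1 oxidises 5-methylcytosine, a step on the way to unmethylated DNA, and in embryonic stem cells it is known for binding CpG-rich promoters, where it often covers broad stretches. RNase H1 degrades RNA that is paired with DNA, and Nuclease S1 cuts single-stranded nucleic acid, so the treatment bears on R-loops, in which such a hybrid displaces a DNA strand. A peak caller draws a peak as the run of positions whose fragment coverage passes a threshold. Its width therefore depends on how far the protein spreads and on how high the coverage stands over the threshold. The labels give a mean fragment size of 250 bp, so a peak under 350 bp is little wider than one sheared fragment. Positions below are on mm9, and whether a region lies in a gene or promoter is not reported because no annotation of that build was used.

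Peak lists held 62161 to 74404 peaks in the nuclease-treated libraries and 73602 to 83601 in the mock libraries. The genome-wide mean coverage recovered from the lists was 1.93 to 2.24 fragments in nuclease-treated and 2.13 to 2.253 fragments in mock libraries. Nuclease-treated replicate 2 had both the shortest list and the lowest coverage, and mock replicate 3 was the lowest of the mock libraries in both. Summit coverage is given below in multiples of this genome-wide level in the same library. It does not use the input, although whether a peak is called does.

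The narrow regions were weakly covered sites in mock cells. Their median summit coverage was 7.55, 7.62 and 7.51 times background in mock replicates 1, 2 and 3, which is 16 or 17 fragments at the summit, whereas the other regions had medians of 10.7, 10.8 and 10.3 times background. Coverage averaged over the mock libraries ran from 4.23 to 106.8 times background among narrow regions, with a median of 7.57, and 240 of them (11.2%) reached 10 times background, against 54.2% of the other regions. Only 18 narrow regions reached 15 times background. Median peak width at the narrow regions was 289, 297 and 295 bp in the 3 mock lists, and the shortest peaks of any list measured 235 to 251 bp.

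Width and coverage placed the limit of 350 bp inside a continuous range. Just inside it, the region on chromosome 2 from 156373219 to 156373570 had a widest mock peak of 349 bp, a mean mock coverage of 14.2 times background and no peak after nucleases. The region on chromosome 9 from 91459219 to 91459569 had the same widest peak, 11.6 times background in mock, and likewise no nuclease-treated peak. Just outside it, the region on chromosome 9 from 107420424 to 107420853 had a widest mock peak of 350 bp and 13.6 times background in mock, with a peak in all 3 nuclease-treated lists. A second, on chromosome 15 from 89304343 to 89304770, had 350 bp and 13.3 times background, with a peak in 2 nuclease-treated lists. Among regions equally near the limit, these examples were picked for the highest mean mock coverage, and they are not typical in recovery. Mean recovery over all single-peak regions was 44.1% at 325 to 349 bp and 49.0% at 350 to 399 bp.

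Fewer than 45% of the narrow regions had a peak in any single nuclease-treated list, where the other regions mostly kept theirs. Nuclease-treated replicate 1 had a peak in 882 of the 2147 narrow regions, or 41.1% (95% exact binomial interval 39.0 to 43.2%). In replicate 2 the number was 693, or 32.3% (30.3 to 34.3%), and in replicate 3 it was 956, or 44.5% (42.4 to 46.7%); these intervals cover counting error only. Replicate 2, the library with the lowest coverage, was lowest. The same lists had a peak in 81.3, 76.9 and 83.2% of the other regions, and the background over all 47377 regions present in every mock list was 79.4, 74.9 and 81.5%. Averaged over the nuclease-treated libraries, recovery was 39.3 ± 6.32% at narrow and 80.5 ± 3.22% at other regions (SD, n = 3 each), so the difference was far larger than the spread between libraries.

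Complete absence after nucleases was correspondingly frequent. Of the narrow regions, 636 (29.6%) had no peak in any nuclease-treated list, where the background over the whole all-mock set was 6.64%. A further 732 had a peak in 1 nuclease-treated list and 538 in 2. All 3 nuclease-treated lists had a peak in 241 narrow regions (11.2%), against a background of 61.4%. Median mock coverage was 8.16 times background for narrow regions found in all 3 nuclease-treated lists and 7.41 for those found in none. Their mean mock width had a median of 303 bp when found in all 3 and 290 bp when found in none. Local background in mock lists, the coverage the caller expected around the peak, had a median of 1.26 times the genome-wide level in the regions found in all 3 and 1.07 in those found in none.

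Recovery of narrow regions varied less with their mock coverage than that of the other regions did, and it was lower at every coverage. At under 6 times background in mock, 33.5 ± 8.13% of 270 narrow regions and 52.3 ± 6.46% of 2043 other regions had a nuclease-treated peak (SD, n = 3 libraries each). At 8 to 9 times background the shares were 42.2 ± 7.22% of 408 narrow and 72.0 ± 3.63% of 5103 other regions. At 10 to 12 times background they were 42.4 ± 8.14% of 181 narrow and 82.2 ± 3.05% of 6674 other regions (SD, n = 3 libraries each). The 18 narrow regions at 15 times background or more were recovered in 59.3 ± 8.49%, against 97.6 ± 0.658% of the 11700 other regions of that strength.

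**Figure D1:**
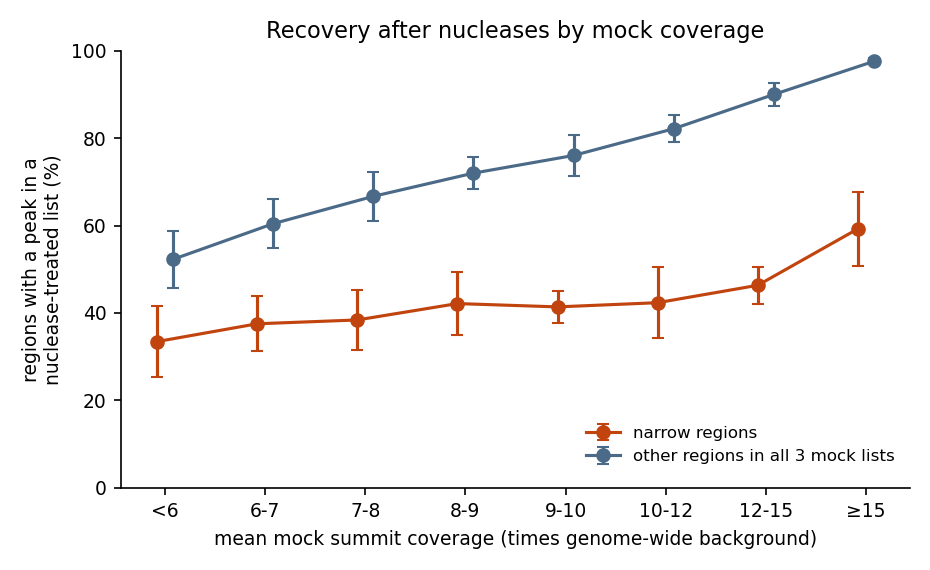
Share of regions with a peak in a nuclease-treated list (vertical axis, percent) by mean mock summit coverage in multiples of the genome-wide background (horizontal axis), for narrow and other regions; points are means and bars the SD over the 3 nuclease-treated libraries. Narrow regions lie between 33.5 and 59.3% across the bins, below the other regions in every bin, and the last narrow bin holds 18 regions.

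Weighting the other regions to the mock coverage of the narrow ones left most of the gap. With this weighting, recovery at other regions was 68.2, 62.3 and 72.0% in nuclease-treated replicates 1, 2 and 3. Narrow minus other recovery was -27.1, -30.0 and -27.5 percentage points in these libraries, or -28.2 ± 1.61 on average (SD, n = 3), a difference for which no test was made. Against the wider single-peak regions alone, which share with the narrow ones a single peak per mock list, the difference was -26.7 ± 1.49 points (SD, n = 3). Local background had a median of 1.11 ± 0.0106 times the genome-wide level at narrow and 1.20 ± 0.0108 at other regions in mock lists (SD, n = 3 each). With both sets restricted to regions of local background at most 2 times the genome-wide level in every mock list, the difference was -28.2 ± 1.45 points (SD, n = 3).

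Within single-peak regions, recovery followed peak width across the limit without a step. Of the 76 regions whose widest mock peak was under 275 bp, 33.3 ± 7.48% had a nuclease-treated peak (SD, n = 3 libraries). The share was 31.2 ± 7.53% of 319 regions at 275 to 299 bp and 36.2 ± 5.17% of 681 regions at 300 to 324 bp. At 325 to 349 bp it was 44.1 ± 6.68% of 1071 regions. Beyond the limit it was 49.0 ± 5.31% at 350 to 399 bp and reached 92.8 ± 1.88% of the 16050 regions at 800 bp or more (SD, n = 3 libraries each). Median mock coverage also differed along this order, from 6.95 times background under 275 bp to 7.85 at 325 to 349 bp and 14.8 at 800 bp or more.

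**Figure D2:**
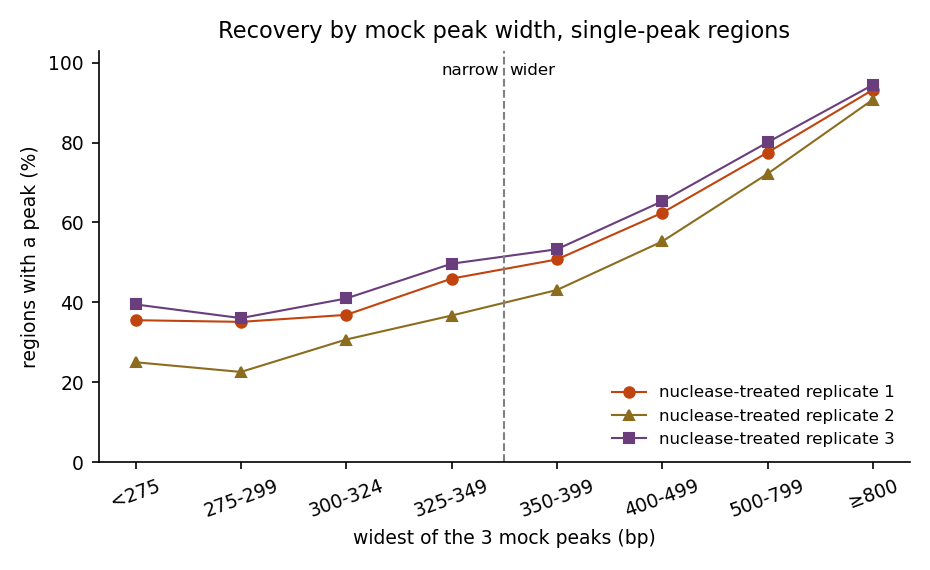
Share of single-peak regions with a peak in each nuclease-treated list (vertical axis, percent) by the widest of the 3 mock peaks in bp (horizontal axis); each line is 1 nuclease-treated library and the dashed line marks the limit of 350 bp. The shares lie between 22.6 and 49.7% below the limit and between 90.8 and 94.5% at 800 bp or more, with replicate 2 lowest in every bin.

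Since presence in all 3 mock lists was part of the choice, recovery in mock cells had to be measured in a library that did not choose the regions. Regions were therefore chosen by 1 peak under 350 bp in each of 2 mock lists, and the left-out mock list and the 3 nuclease-treated lists were read there. Each of the 3 choices gave 5445 to 6852 narrow regions, and nuclease-treated values are averages over the 3 choices. Here the other regions are the rest of those with a peak in both choosing lists. The nuclease-treated libraries had a peak in 38.8, 31.7 and 41.7% of them, and the left-out mock libraries in 64.5, 63.4 and 50.7% (replicates 1, 2 and 3 in each group). The groups did not overlap, and mock replicate 3 was the lowest of its group. The means were 37.4 ± 5.12% in nuclease-treated and 59.5 ± 7.71% in mock libraries (SD, n = 3 each), a difference of -22.1 percentage points (exact two-sided permutation p = 0.1, the smallest that 3 libraries against 3 allow; 0.16 after Benjamini-Hochberg adjustment over 8 comparisons). Left out one at a time, mock replicates 1 and 2 each reduced the difference by more than a factor of 1.5, to -13.7 and -14.5 points, in designs where a single mock list chooses the regions.

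Narrow regions were thus less reproducible within mock cells as well. At other regions the nuclease-treated libraries had a peak in 77.8 ± 3.37% and the left-out mock libraries in 90.2 ± 2.65% (SD, n = 3 each), a difference of -12.3 points (exact permutation p = 0.1, adjusted 0.16), or -23.7 points when a −log10 q of at least 5 was demanded. The nuclease-treated share was 0.629 of the mock share at narrow regions and 0.863 at other regions. In percentage points, nuclease-treated minus mock was thus more negative at narrow than at other regions (difference of differences -9.77 points, exact permutation p = 0.1, adjusted 0.16). Mock recovery was 59.5% at narrow but 90.2% at other regions, near the ceiling, so which set changed more depends on the scale. Odds of a peak and shares without a peak were not compared. Where a peak was found, local background at narrow regions had a median of 1.34 ± 0.00956 times the genome-wide level in nuclease-treated lists, against 1.11 ± 0.0106 in mock lists, and at other regions 1.58 ± 0.00548 in nuclease-treated against 1.20 ± 0.0108 in mock lists (SD, n = 3 each, regions of the main rule). With peaks of local background above 2 times the genome-wide level left out of every list, the differences were -24.1 points at narrow and -23.6 points at other regions, and the difference of differences was -0.516 points (exact permutation p = 1). That filter removes more peaks from nuclease-treated lists, where 10.7 to 14.5% of peaks exceeded the limit, than from mock lists, where 2.495 to 2.905% did. It also acts unequally on the sets. At regions of the main rule with a peak, 20.2% of other and 6.45% of narrow regions exceeded it in nuclease-treated lists. In mock lists 3.78% of other and 1.68% of narrow regions did (means, n = 3 each). The filtered contrast therefore compares lists thinned most at nuclease-treated other regions. Without mock replicate 1, 2 or 3 the difference of differences was -3.16, -4.04 or -4.93 points.

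**Figure D3:**
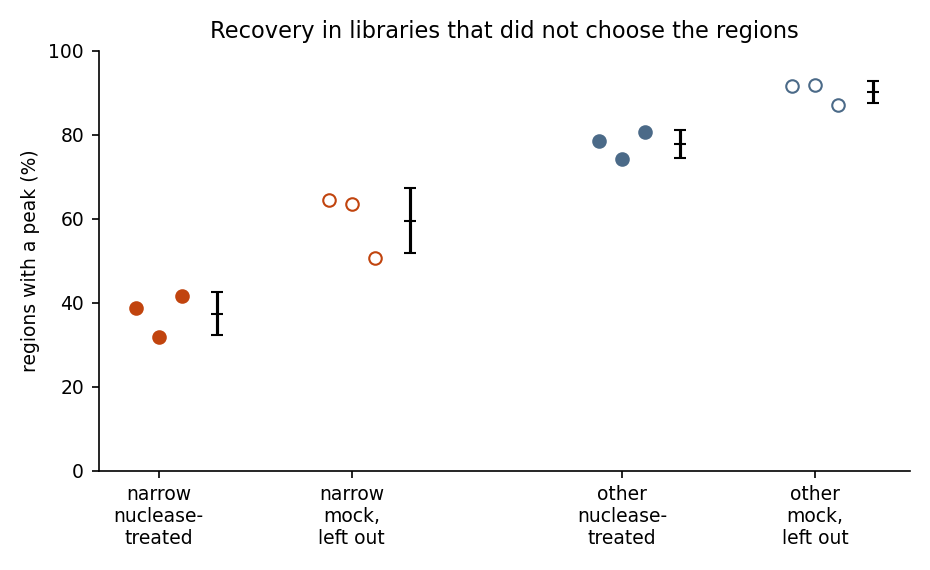
Share of regions with a peak (vertical axis, percent) in libraries that did not choose the regions: nuclease-treated (filled) and left-out mock (open) libraries, at narrow and at other regions. Each point is 1 library, and the bar beside the points is the mean ± SD of 3; nuclease-treated points lie below mock points in both sets.

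At like coverage, the lower reproducibility of narrow regions was present in both conditions. Other regions weighted to the coverage of the narrow ones had a peak in 63.1 ± 4.98% in nuclease-treated and 79.5 ± 4.50% in left-out mock libraries, where the narrow regions had 37.4 ± 5.12% and 59.5 ± 7.71% (SD, n = 3 each). The difference of differences was then -5.66 points (exact permutation p = 0.1, adjusted 0.16, next of the 20 label orders -5.03). Demanding a −log10 q of at least 5 gave 0.323 points, and the value was -1.02, -1.997 and -1.988 without mock replicate 1, 2 and 3. Narrow regions of 12 to 15 times background in the choosing libraries had a peak in 49.4 ± 4.30% of nuclease-treated and 85.4 ± 5.62% of left-out mock libraries (SD, n = 3 each). At under 6 times background the shares were 31.3 ± 5.75% and 45.2 ± 5.75% (SD, n = 3 each).

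Strong peaks at narrow regions were also fewer after nucleases. A summit of at least 8 times background was found at 17.6, 15.0 and 17.3% of the narrow regions in nuclease-treated replicates 1, 2 and 3, and at 28.6, 33.3 and 21.4% in the left-out mock libraries. The groups did not overlap, and their difference was -11.2 points (exact permutation p = 0.1, adjusted 0.16). Without mock replicate 1, 2 or 3 it was -7.08, -5.27 or -7.43 points, and with a −log10 q of at least 5 it was -20.8 points. At other regions the shares were 54.6 ± 1.71% in nuclease-treated and 66.3 ± 4.13% in mock libraries (SD, n = 3 each). Here the difference of differences was 0.525 points (exact permutation p = 0.8), and its sign depended on the coverage threshold, at -7.03 points for 6 times background and 10.5 points for 10 times background.

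Peaks that were found again stayed narrow for the most part. At the narrow regions of the main rule, 69.8, 69.3 and 64.2% of the peaks in nuclease-treated replicates 1, 2 and 3 were under 350 bp, with median widths of 309, 304 and 318 bp. At the other regions 18.2, 19.1 and 15.9% of nuclease-treated peaks were that narrow. For regions chosen by 2 mock lists, 63.1 ± 2.87% of the recovered peaks were under the limit in nuclease-treated and 59.7 ± 3.22% in left-out mock libraries (SD, n = 3 each). The difference of 3.39 points lay within the spread between libraries (exact permutation p = 0.4, adjusted 0.457). The nuclease-treated lists had 2 or more peaks in 0.113 to 0.209% of the narrow regions they recovered.

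Summit coverage could be compared only where every library had a peak, and there it was close in the 2 conditions at narrow regions. In the 238 narrow regions with exactly 1 peak in each of the 6 lists, median summit coverage was 8.07, 8.30 and 7.59 times background in nuclease-treated and 7.99, 8.06 and 7.98 in mock replicates 1, 2 and 3. The groups overlapped. The wider single-peak regions with 1 peak in each list, 21759 in number, had medians of 9.97, 9.85 and 9.83 in nuclease-treated and 12.4, 12.5 and 12.2 in mock libraries. Per region, the ratio of mean nuclease-treated to mean mock coverage had a median of 1.00 at narrow and 0.784 at wider regions. Every nuclease-treated value was below every mock value in 19 of the 238 narrow regions (7.98%), against a background of 43.4% of regions with 1 peak in each list, and above them in 12 (5.04%), against a background of 1.5%.

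**Figure D4:**
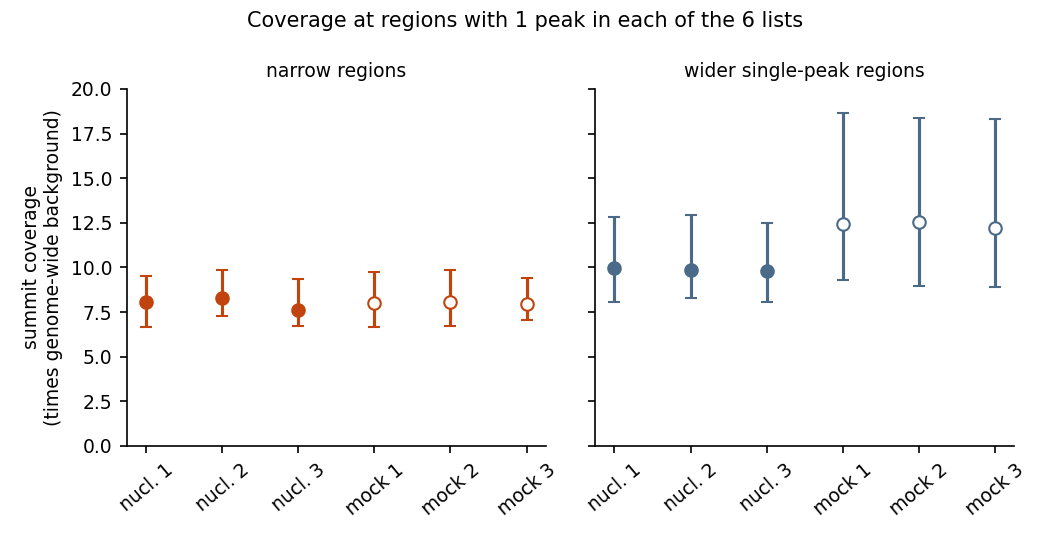
Summit coverage in multiples of the genome-wide background (vertical axis) in each library, for regions with exactly 1 peak in each of the 6 lists: 238 narrow and 21759 wider single-peak regions. Points are medians over regions and bars span the quartiles; nuclease-treated libraries are filled and mock libraries open, and their medians are apart only at the wider regions.

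Below 15 times background in mock, the median ratios of narrow and wider regions were close at like mock coverage, with no test made. Where mock coverage was 9 to 10 times background, the median ratio was 0.929 in 35 narrow and 0.896 in 1984 wider regions. At 10 to 12 times background it was 0.859 in 23 narrow and 0.831 in 3280 wider regions. At under 6 times background it exceeded 1 in both, at 1.20 in 20 narrow and 1.18 in 361 wider regions. Coverage is known only where a peak was called, which limits how low it can be in such weak regions. At 12 to 15 times background it was 0.740 in 9 narrow and 0.758 in 3490 wider regions. At 15 times background or more it was 0.801 in 6 narrow and 0.647 in 8043 wider regions. In that open bin mock coverage was not alike. Its medians were 79.5, 63.8 and 79.5 times background at narrow and 20.9, 20.6 and 21.1 at wider regions in mock replicates 1, 2 and 3. Median local background at these 238 narrow regions was 1.32 ± 0.00951 times the genome-wide level in nuclease-treated and 1.25 ± 0.0275 in mock lists (SD, n = 3 each). At the wider regions it was 1.55, 1.57 and 1.57 in nuclease-treated and 1.27, 1.24 and 1.27 in mock replicates 1, 2 and 3, and its part in the result was not tested.

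Summits of narrow regions lay close together between libraries, which the overlap of such narrow peaks partly requires. In the 238 regions, the median distance between the summits of 2 libraries averaged 37.3 bp over the 3 pairs of nuclease-treated libraries, 32.6 bp over the 9 pairs of a nuclease-treated and a mock library and 30.3 bp over the 3 pairs of mock libraries. Single pairs ranged from 26.5 to 39.0 bp. All pairs of nuclease-treated libraries, at 35.5 to 39.0 bp, lay above all pairs of mock libraries, at 28.0 to 33.0 bp. The test that follows joins both kinds of pairs, so it cannot show this separation. It also kept the regions chosen on mock widths under every split. The average of pairs within a group was 1.22 bp above that of pairs between groups (exact permutation p = 0.4, adjusted 0.457, smallest possible 0.1), a difference within the spread of the pairs and one that turned negative without any 1 nuclease-treated library (-0.792 to -0.375 bp). A distance of at most 50 bp held for 65.5% of narrow regions between a nuclease-treated and a mock library and for 67.6% between mock libraries.

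The wider single-peak regions showed larger distances, as their width allows. Their averages were 72.7 bp between nuclease-treated libraries, 66.4 bp between the groups and 53.3 bp between mock libraries. Relative to the mean width of the 2 peaks, the median distance at narrow regions was 10.5, 10.2 and 10.2% in these 3 kinds of pairs. At wider regions it was 12.5, 10.5 and 7.80%, so the mock pairs of wider regions were the closest on that scale. A summit moved by over 150 bp in 6.44% of narrow and 25.7% of wider regions between a nuclease-treated and a mock library.

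**Figure D5:**
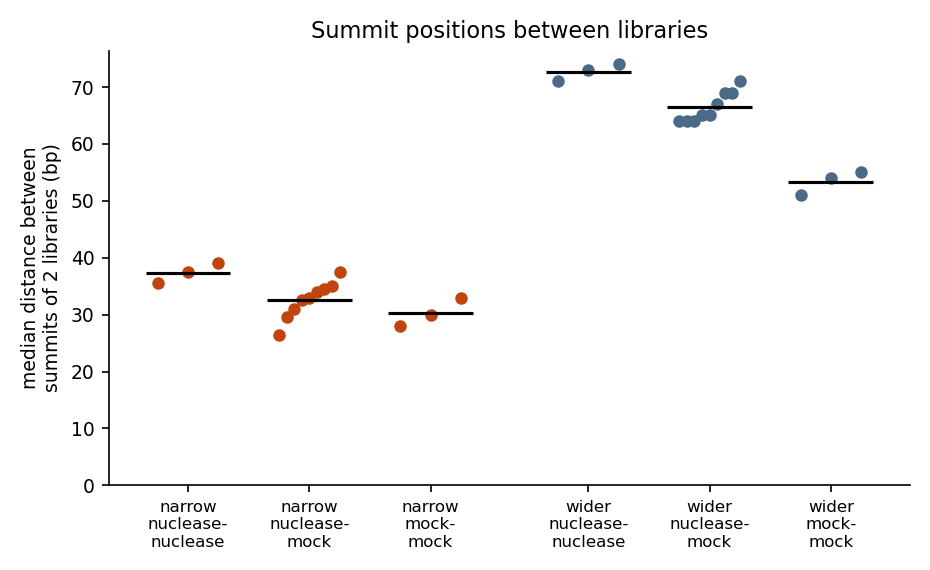
Median distance between the summits of 2 libraries in bp (vertical axis) for every pair of libraries, by kind of pair, at the 238 narrow and 21759 wider regions with 1 peak in each list; each point is 1 pair and the line is the mean of the pairs. Narrow regions lie between 26.5 and 39.0 bp for all kinds of pairs, and wider regions between 51.0 and 74.0 bp.

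The strongest narrow regions, ranked by mean mock coverage, stood far above the rest; a choice by mock values favours mock over nuclease-treated libraries. On chromosome 4, the region from 64284501 to 64284900 had 65.1, 72.6 and 63.9 times background in nuclease-treated and 79.5, 101.7 and 86.8 in mock replicates 1, 2 and 3, and the groups did not overlap. On chromosome 8, from 37306134 to 37306479, coverage was 51.8, 52.4 and 46.9 times background in nuclease-treated and 81.2, 91.8 and 80.7 in mock libraries, again without overlap. Its ratio, 0.595, was the lowest among the 57 narrow regions that had 1 peak in each of the 6 lists and at least 8 times background in all 3 mock libraries. On chromosome 19, from 31923673 to 31924034, the values were 65.1, 72.6 and 64.8 in nuclease-treated and 79.5, 66.8 and 93.4 in mock libraries, which overlapped. On chromosome 2, from 107577397 to 107577704, they were 73.6, 68.4 and 70.1 in nuclease-treated and 96.3, 60.9 and 78.4 in mock libraries, also with overlap. All 4 kept peaks of 260 to 399 bp after nucleases, with no local background above that of the genome as a whole.

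The single strongest narrow region had no nuclease-treated peak at all. It lies on chromosome 7 from 137977876 to 137978156 and had 114.5, 104.8 and 100.9 times background in the mock libraries, where the caller expected 7.54 to 7.76 times the genome-wide coverage. The next strongest regions without a nuclease-treated peak were on chromosome 14 from 62667760 to 62668053, at 52.1 ± 6.02 times background in mock, and on chromosome 16 from 98130603 to 98130936, at 21.8 ± 3.43 (SD, n = 3 each). In both, no excess of local background was recorded. The other two lay on chromosome 11, from 42022158 to 42022485 at 19.2 ± 3.64 and from 100406691 to 100407022 at 14.8 ± 0.185 times background (SD, n = 3 each). Coverage after nucleases is unknown where a list has no peak, so no fold is given for these 5.

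Among the same 57 regions, chosen on high mock coverage, 44 had a ratio below 1, and the median ratio was 0.895. Every nuclease-treated value was below every mock value in 14 of them (24.6%), and above in 0. For wider single-peak regions chosen by the same threshold the shares were 60.4% below and 0.175% above, with a median ratio of 0.720. Their mock coverage was higher, however, with medians of 15.5, 15.7 and 15.0 times background in replicates 1, 2 and 3. The 57 had 10.7, 10.8 and 9.85. At a mean mock coverage of 10 to 12 times background, the shares below were 21.7% of 23 narrow and 26.2% of 3280 wider regions. Some of the 57 were covered more highly after nucleases. The highest ratio in this set was on chromosome 6, where the region from 127985608 to 127985956 had 13.3, 14.0 and 12.1 times background in nuclease-treated and 11.5, 12.1 and 9.85 in mock libraries, a ratio of 1.18 with overlapping groups. Next in this set were chromosome 8 from 14986655 to 14987034, with a ratio of 1.14, and chromosome 4 from 124615561 to 124616091, with 1.10. The lowest ratios of the 57 after the region on chromosome 8 from 37306134 to 37306479 were 0.611 on chromosome 4 from 124163099 to 124163705 and 0.624 on chromosome 1 from 35303680 to 35304128. At the first of these, coverage was 6.65, 7.78 and 5.81 times background in nuclease-treated and 11.1, 11.2 and 10.8 in mock libraries. At the second it was 6.65, 8.82 and 9.38 in nuclease-treated and 15.5, 13.0 and 11.3 in mock libraries. In these regions, picked for the lowest ratios, the separation of the groups follows from the choice.

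The narrowest regions differed widely among themselves. The region on chromosome 7 from 27792018 to 27792781 had mock peaks of 238, 247 and 252 bp and nuclease-treated peaks of 662 and 764 bp in replicates 2 and 3, with none in replicate 1. That on chromosome 7 from 134738099 to 134738402 had a mean mock width of 246 bp at 5.14 ± 0.201 times background (SD, n = 3) and a peak of 282 bp in nuclease-treated replicate 3 alone. The third, on chromosome 11 from 100683642 to 100683905, averaged 249 bp at 6.81 ± 0.517 times background in mock (SD, n = 3) and had no nuclease-treated peak.

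Narrow regions were spread over all 19 autosomes and lay farther from other TET1 regions than the comparison set did. They made up 3.52% of the all-mock set on chromosome 11, the lowest share, and 6.25% on chromosome 3, the highest, with a median of 4.46%. Mean recovery after nucleases ran from 34.0% on chromosome 9 to 46.7% on chromosome 8. The median distance to the nearest region of any list was 1993 bp for narrow and 1252.5 bp for other regions. To the nearest region with a peak in all 6 lists it was 16039 bp for narrow and 7652 bp for other regions, and 59.2% of narrow against 45.5% of other regions were over 10000 bp from one. The 1272 narrow regions at such a distance had a peak in 39.3, 30.7 and 43.9% of cases in nuclease-treated replicates 1, 2 and 3. The 214 within 1000 bp of one had 48.1, 34.1 and 44.4%, more in each library, though by little in replicate 3. Other regions showed the same direction, with 78.3, 73.9 and 80.9% beyond 10000 bp and 87.2, 83.8 and 88.9% within 1000 bp. The differences were not tested.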

How the data were processed

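HA-TET1 ChIP-seq peak lists of 3 nuclease-treated and 3 mock libraries were used. Per the submitters' processing notes, the tools included Bowtie2 2.2.8, SAMtools 1.3.1, MACS2 2.1.1 and bedtools 2.25.0 with build mm9; their settings are not given in these sources. Peak names show that the authors called peaks per library, with a pooled input for each condition. The deposited fold is a ratio of summit coverage to local background, the deposited p-value and q-value are −log10 values, and the deposited score restates the −log10 q multiplied by 10. Fold and p together fix the whole-number summit coverage (MACS2's Poisson formulas, tolerance 0.001 in −log10 p), which was found for 99.995% or more of each list. The most frequent local background is the genome-wide level by which coverage was divided. Total fragments are not known, and about 17 fragments at a summit limit the precision of single regions.

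Python 3.11.15, numpy 2.4.6, scipy 1.17.1 and pandas 2.3.3 were used. Tests were exact permutations of library labels. Except for summit distances, the choice of regions was repeated under each order and the two-sided p was the smaller tail doubled. For summit distances the regions were kept as chosen on mock widths, and no tail was doubled. Procedures were tested on simulated data. Members, lists and tests were chosen with earlier results of these data known. Named regions are the 5 strongest members, the 5 strongest without a nuclease-treated peak, the 3 lowest and 3 highest ratios among the 57 members with 1 peak in each list and at least 8 times background in every mock library, the 3 narrowest and 2 on each side of the limit, outside chromosome 18. Median coverage in left-out libraries had been planned but is not given, because nuclease-treated lists had a peak in too few regions. The width of recovered peaks, the comparison at like coverage in left-out libraries and the comparison of strong summits between sets were added after seeing the data.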

Additional observations from a re-analysis of the deposited data

How the results depend on the processing

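Of 129 recomputed values, 114 kept their direction or stayed within 1 SD, 9 changed sign and 6 moved by more. The 114 include the values with the replicate block, which changes only the p and could not differ. A kept direction is also no kept size: the difference of differences in recovery fell from -9.77 to -0.516 points with local background limited to 2. No test can pass 0.05 with 3 libraries a group. The recovery gap at like coverage (-28.2 points) was -31.8 with a limit of 300 bp, -26.2 with 400 bp and -18.1 with −log10 q of at least 5. The difference between sets for summits of 8 times background or more changed sign at 400 bp (-1.18), the stricter q (-2.83), equal list lengths (-3.14) and 6 times background (-7.03), and was 9.68 with local background limited to 2 and 10.5 at 10 times background. The difference between sets at like coverage was 0.323 with the stricter q, -9.26 with equal list lengths and -7.13 at 400 bp. At 300 bp it was -3.31 (exact permutation p = 0.4), and with local background limited to 2 it was -3.93 (exact permutation p = 0.3). The summit difference was -0.444 bp at 400 bp and 2.67 bp at 300 bp. With the stricter q the treatment difference was -32.5 points at narrow and -23.7 at other regions. Summits of 8 times background or more at narrow regions gave -20.8 points with the stricter q, -17.0 with equal list lengths and, at 6 times background, -18.1. The share of recovered peaks that stayed narrow differed by 6.57 points with the stricter q, 6.47 with equal list lengths and 5.53 at 300 bp.

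With each library left out in turn, the gap at like coverage ranged from -28.8 to -25.3. Leaving out a mock library also changed the regions, since fewer mock lists then chose them. The gap then rested on 5445 to 6852 narrow regions instead of 2147. For the summit difference any library left out changed the regions, to 368 to 684 instead of 238. The treatment difference ranged from -24.2 to -13.7 points at narrow regions, from -13.8 to -10.5 at other regions and from -10.4 to -3.16 between them. For summits of 8 times background or more it ranged from -11.7 to -5.27 at narrow regions and from 0.359 to 3.83 between sets. At like coverage the difference between sets ranged from -6.03 to -1.02, the share of narrow recovered peaks from 1.46 to 5.05 and the summit difference from -0.792 to 2.08 bp. The causes were not tested.

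Deviations of same-numbered libraries correlated at 0.210, -0.0426 and -0.00496 over the 238 regions, and those of differently numbered libraries at -0.152 to 0.166. The value for replicate 1 was the highest of all pairs. With so few fragments at a summit, these values cannot settle whether the replicate numbers pair the libraries. With the replicate block the difference at narrow regions was -22.1 points, with an exact permutation p = 0.25, the smallest that 8 orders allow. Median coverage in left-out libraries and its alternatives, and the like-coverage comparison with 50% overlap or separate merging, were not run.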
